A study of Oryctolagus cuniculus with 20 samples.

Results

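The tricuspid valves of 5 dexfenfluramine-treated rabbits were compared with those of 5 pergolide-treated rabbits by RNA-seq. The members were the 10 valves that the sample labels assign to these drugs, out of 20 valves in the series, and the non-treated valves did not enter the comparison. All were female New Zealand white rabbits, 8 weeks old at the start per the study's methods, and each library came from the valve of a single rabbit. Dexfenfluramine was given at 20 mg/kg per day and pergolide at 0.5 mg/kg per day, in drinking water, for 16 weeks. The dexfenfluramine dose is that of the labels and methods, and another passage of the study gives a lower dose. Each drug was given at a single dose and the doses differ, so the values below stand side by side for these treatments as given and do not compare the drugs at a matched dose. The 5 non-treated rabbits, whose valves had the same processing, are used below for background levels. In an alternative fit of all 20 valves, they and 5 rabbits given serotonin at 80 mg/kg per day enter the estimate of spread.

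Dexfenfluramine is the d-enantiomer of fenfluramine, an amphetamine derivative that was used to suppress appetite and that releases serotonin, and pergolide is an ergot derivative that stimulates dopamine receptors and was used in Parkinson disease. Both have been linked to valvular heart disease in people, in which leaflets thicken and stiffen, and both drugs, or their metabolites, act on serotonin receptors of valvular interstitial cells. These fibroblast-like cells make the collagen, proteoglycans and elastic fibres of the leaflet, beneath a sheet of endothelium, while cardiac muscle and fat lie at the base of the leaflet and can be taken along with it.

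The total counts on genes were 4848510, 5921025, 4794216, 4520559 and 4484239 in pergolide valves 1 to 5, and 3988470, 4294294, 3247091, 4360205 and 5790948 in dexfenfluramine valves 1 to 5. Levels are given as CPM, the count of a gene per 1e6 counts of the valve, after TMM normalization, a scaling that adjusts for differences in library composition, and list values in the order of valves 1 to 5. The TMM factors were 0.8312 to 1.417 in the drug valves and 0.478 to 1.015 in the non-treated valves, so the non-treated levels given as background depend on this scaling. Of 23669 genes in the count table, 8436 had enough counts to be tested in these 10 valves. Gene symbols came from the symbol list the study supplies, which holds genes that it found to differ from non-treated valves, so that 3413 of the tested genes (40.5%) could be named and the named genes are not a random sample of the genome. Differences are dexfenfluramine minus pergolide on the log2 scale, and the p-values measure the spread between valves of separate rabbits.

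Valvular interstitial cell markers were abundant in all 10 valves. The summed level of the 9 of 15 markers that could be counted, led by VIM, was 8970, 10000, 8490, 10900 and 13200 CPM in the pergolide valves and 10300, 11300, 13600, 9560 and 10300 CPM in the dexfenfluramine valves, and the groups overlapped. Endothelial markers, of which 3 of 14 could be counted with PECAM1 the most abundant, summed to 341, 273, 221, 322 and 290 CPM with pergolide and to 320, 365, 437, 340 and 357 CPM with dexfenfluramine, where the highest value was that of dexfenfluramine 3. The remaining markers of these lists, among them PDGFRA, POSTN, CDH5 and VWF, have no symbol here and were not examined, and no marker with a symbol was at 0 in all 10 valves.

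Muscle and fat markers varied most between valves. The 13 of 22 cardiomyocyte markers that could be counted, led by TTN, summed to 102000, 115000, 115000, 65800 and 60400 CPM in the pergolide valves and to 87900, 65800, 15700, 76100 and 88300 CPM in the dexfenfluramine valves. Dexfenfluramine 3 was far below every other valve, and the other 4 dexfenfluramine valves lay within the pergolide range. All 13 had log2 differences below 0, with a median of -0.51, and -0.25 without dexfenfluramine 3. The 11 of 20 adipocyte markers, led by ADIPOQ, summed to 357, 384, 243, 131 and 227 CPM with pergolide and to 123, 195, 11.6, 82.9 and 192 CPM with dexfenfluramine, against 56.8 to 154 CPM in the non-treated valves. Adipocyte levels overlapped as well, with dexfenfluramine 3 again the lowest and pergolide 1 and 2 the highest. In whole-tissue RNA, fewer cells of a type and less RNA per cell cannot be told apart.

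**Figure D1:**
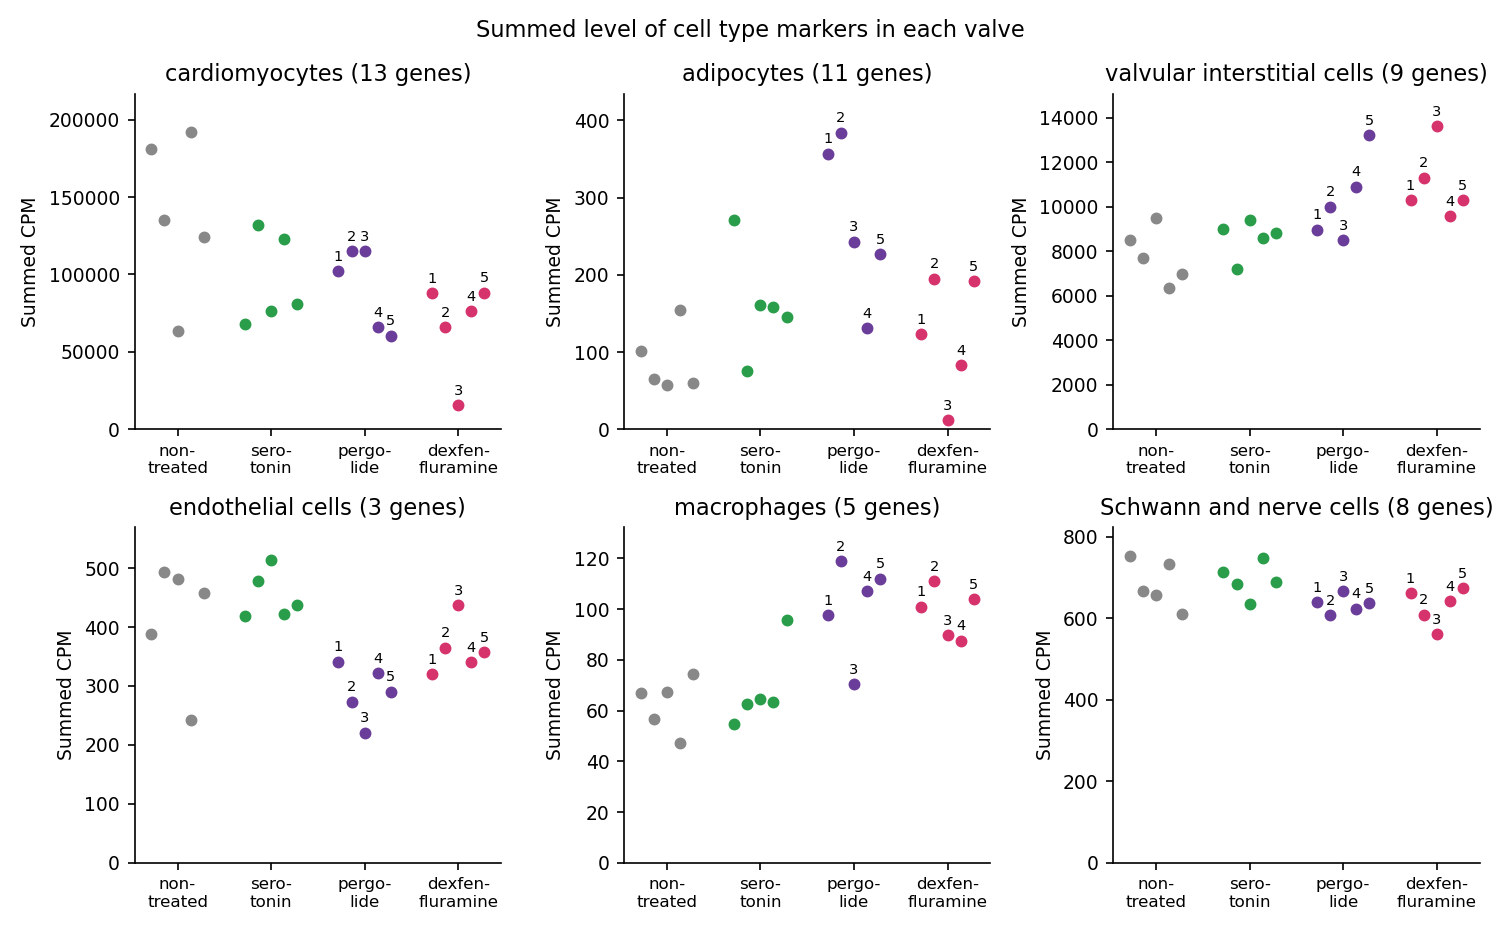
Summed CPM of the markers of 6 cell types in each valve, with a point per valve, the group on the horizontal axis and the replicate number beside each point of the drug groups. Dexfenfluramine 3 has the lowest cardiomyocyte sum (15700 CPM) and adipocyte sum (11.6 CPM) and the highest valvular interstitial cell sum (13600 CPM) of the drug valves.

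Smaller marker lists gave the following sums. Smooth muscle markers (4 of 10, led by DES) summed to 570, 547, 583, 473 and 518 CPM with pergolide and to 635, 433, 154, 412 and 449 CPM with dexfenfluramine, again lowest in dexfenfluramine 3. Macrophage markers (5 of 15, led by LAPTM5) overlapped, at 97.6, 119, 70.4, 107 and 112 CPM with pergolide and 101, 111, 89.7, 87.6 and 104 CPM with dexfenfluramine, while the non-treated valves held 47.4 to 74.4 CPM. Schwann and nerve cell markers (8 of 12, led by NCAM1) were close, at 639, 607, 666, 623 and 637 CPM and 661, 608, 561, 641 and 674 CPM in the same order. Of lymphocyte, erythroid and chondrocyte markers, 1 each could be counted. CD247, a T cell receptor subunit, had 1.82, 4.68, 4.02, 0.842 and 1.72 CPM with pergolide and 0.769, 1.24, 0.436, 0.674 and 1.14 CPM with dexfenfluramine, near or below the level of 3 counts (0.572 to 0.769 CPM depending on the valve) in several valves, and too few counts to be tested. GYPC, a red cell membrane protein, had 19.3, 29.1, 22.6, 18.7 and 18.3 CPM and 13.3, 18.9, 20.5, 22.7 and 28.6 CPM, and HAPLN1 is described below.

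Dexfenfluramine 3 stood apart from the other valves across many genes. It held the highest or lowest CPM of the 10 valves in 3402 genes (40.3%), against 1037 to 2072 genes (12.3% to 24.6%) for each of the others. On the first principal component of the 500 most variable genes, which held 48.9% of the variance, its score was 37.1, while the other dexfenfluramine valves scored -2.79, 0.0875, 3.35 and -4.86 and the pergolide valves -12.5, -11.7, -12.3, 2.26 and 1.41. Of the variance on this component, 23.1% lay between the drugs (exact permutation test, two-sided, p = 0.103, adjusted p = 0.206 over 2 components), and on the second component 0.26% (exact permutation test, p = 0.921). Pergolide valves 1 to 3 lay at the opposite end from dexfenfluramine 3, and pergolide 4 and 5 lay among the other dexfenfluramine valves. Among genes with a symbol, those that weighed most at the pergolide 1 to 3 end, named after their weights were seen, were PLEKHB2, CYP3E1 and CFTR with the fat genes CIDEA and KLB and the muscle genes XIRP2 and MYL2. Without dexfenfluramine 3 the first component held 26.2% of the variance, of which 17.2% lay between the drugs (exact permutation test, p = 0.238). Differences and list medians below are given with and without this valve.

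**Figure D2:**
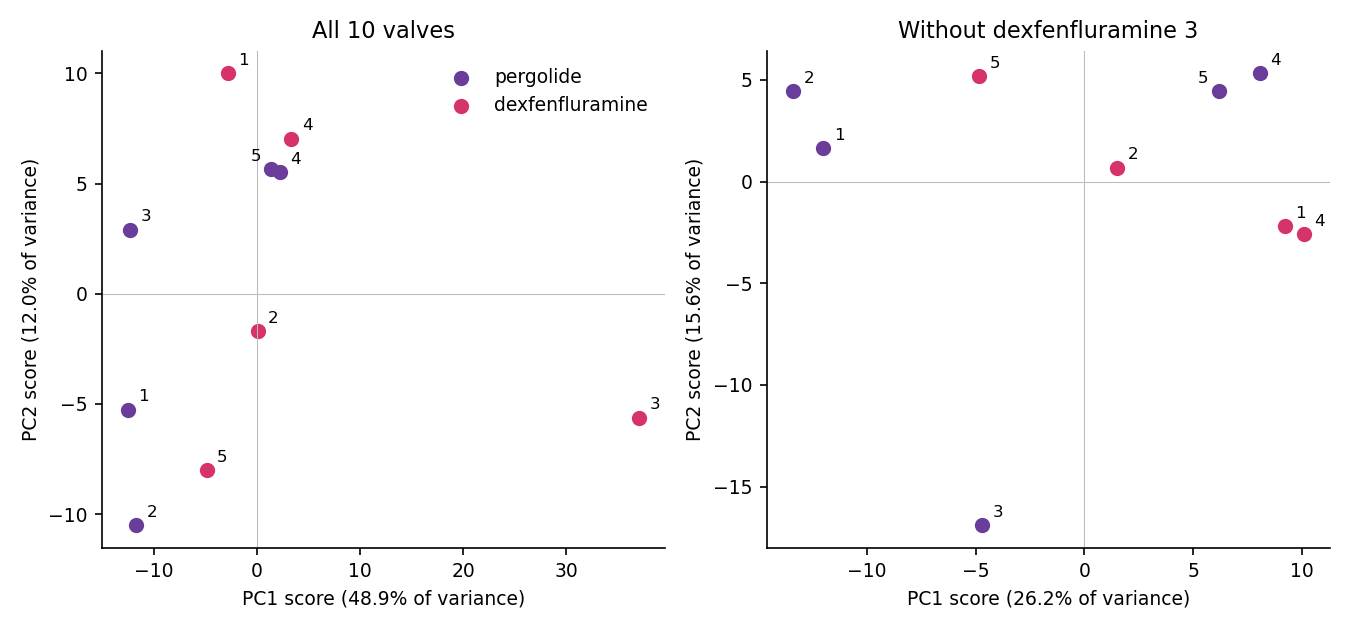
Scores of the valves on the first and second principal components, with all 10 valves on the left and without dexfenfluramine 3 on the right. Each point is a valve with its replicate number, the axes give the share of variance, and dexfenfluramine 3 lies alone at 37.1 on the first component of the left panel.

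A gene without a symbol, ENSOCUG00000029084, took the largest share of the counts. It was 32.9% ± 2.13 (SD, n = 5) of a pergolide library and 29.1% ± 5.65 (SD, n = 5) of a dexfenfluramine library, a difference of -3.86 percentage points (exact permutation test, two-sided, p = 0.214). Dexfenfluramine 3 had the lowest share, 20.32%, and without it the difference was -1.66 percentage points.

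No gene passed an adjusted p of 0.05 with edgeR's quasi-likelihood test (0 of 8436, 0%). At an unadjusted p under 0.05 there were 690 genes (8.18%), of which 382 were higher with dexfenfluramine (4.53% of genes tested) and 308 higher with pergolide (3.65%), and DESeq2 called 18 genes, limma-voom 0, limma-voom with surrogate variables 1, and edgeR with 1 or 3 RUVr factors, which are estimated from residuals, 208 or 329. The RUVr fits turned the balance, with 45 genes called with dexfenfluramine higher and 163 with pergolide higher for 1 factor and 81 and 248 for 3 factors, and with 525 and 754 or 622 and 835 genes at an unadjusted p under 0.05. The smallest adjusted p was 0.0811, shared by SCARNA20, DDIT4 and TNFAIP3, each higher with dexfenfluramine. Among the 3413 tested genes with a symbol, from which the members of every gene list below come, the shares were 5.83% with dexfenfluramine higher and 5.95% with pergolide higher. In 123 genes the 5 valves of a drug lay above all 5 of the other, 74 with dexfenfluramine on top (0.877%) and 49 with pergolide on top (0.581%). Without dexfenfluramine 3, edgeR called 1 of 8518 genes, DDIT4 (adjusted p = 0.0114), and 559 genes had an unadjusted p under 0.05. In 434 genes an unadjusted p under 0.05 was reached in the same direction with and without that valve.

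Of 86 genes that were chosen to be described and had a test, 49 were called in at least 1 other fit, all of them with 3 RUVr factors. DESeq2 called DDIT4, SCARNA20, TNFAIP3, RSPO2, RASSF2, DRP2 and PDK4 with dexfenfluramine higher and ENSOCUG00000017424, CST6, ADAMTSL1, FGFBP1 and CPS1 with pergolide higher, and the RUVr fits with 1 and with 3 factors called these as well. Both RUVr fits also called WASF2, CAPG, VIM, SLC15A3, CAMKK2, SPAG1 and MATN2 with dexfenfluramine higher. With pergolide higher both called TPI1, ND5, CYTB, ACTC1, SMPX, NDUFB4, DNAJB4, CSRP3, TRIM55, ACSL1, MRPS14, LIAS, GPD1, LUM, ENSOCUG00000013891, HSPB3, LNP1, PLCB4, GEM and FBLN7. With 3 factors alone MYO1E, TNS2, HAPLN1, SF3B2, COL4A6 and S100B were called with dexfenfluramine higher and NDUFA3, ZEB1, AQP7 and RBP4 with pergolide higher. The adjusted p-values given below for single genes are those of edgeR without RUVr factors.

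The median standard error of a log2 difference was 0.156, and the median size of the differences was 0.131. In 7488 genes (88.8%) the whole 95% interval of the log2 difference lay between -1 and 1, that is, within a factor of 2 in either direction. The fitted difference exceeded 1 in size in 57 genes, and 48 of them had an unadjusted p under 0.05.

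**Figure D3:**
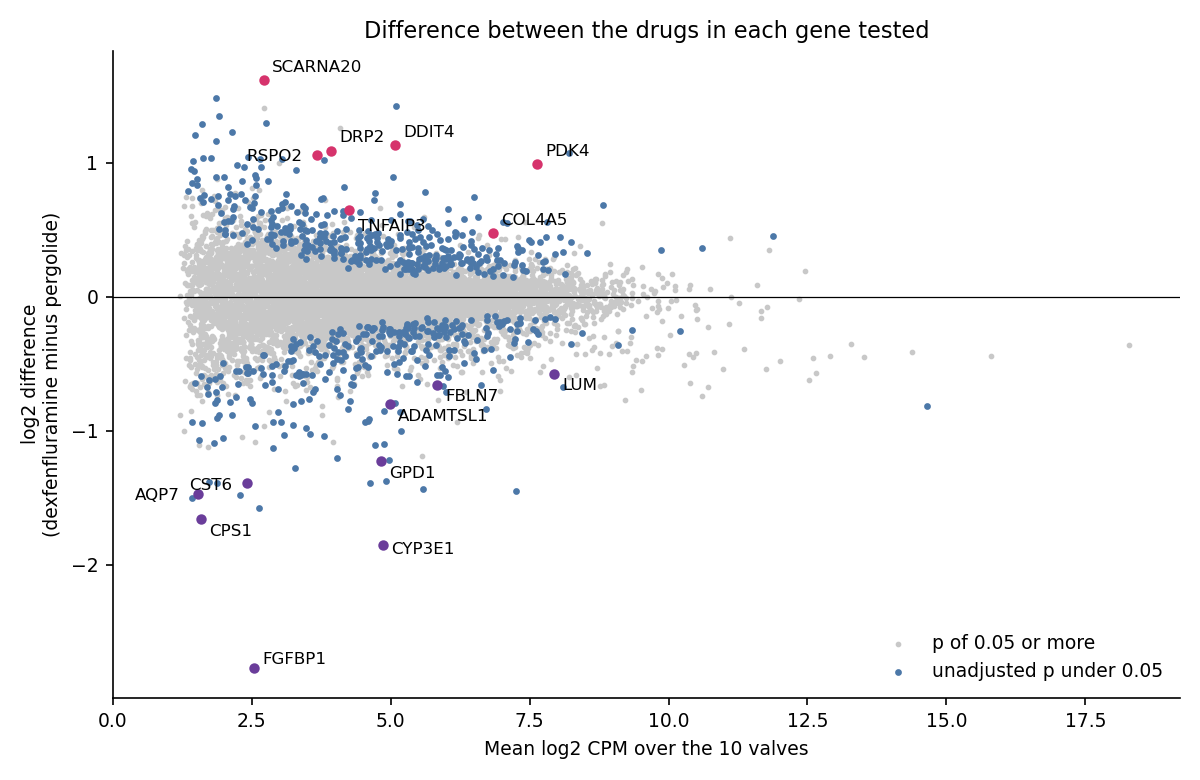
Log2 difference between dexfenfluramine and pergolide valves (vertical axis) against the mean log2 CPM over the 10 valves (horizontal axis), a point per tested gene, with blue for an unadjusted p under 0.05. Named genes are marked in pink where dexfenfluramine was higher and in purple where pergolide was higher, from 1.62 for SCARNA20 to -2.77 for FGFBP1.

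DDIT4 (ENSOCUG00000016772), which restrains mTORC1 and is induced when energy is short, was at 18.9, 17.5, 19.6, 20.2 and 27.6 CPM in the pergolide valves and at 58.2, 49.1, 31.4, 47.6 and 41.7 CPM in the dexfenfluramine valves. The lowest dexfenfluramine value was that of dexfenfluramine 3, still above the highest pergolide value, and the non-treated valves held 12.1 to 32.8 CPM. For DDIT4 the log2 difference was 1.13 (standard error 0.17, edgeR adjusted p = 0.0811), and 1.24 (edgeR adjusted p = 0.0114) without dexfenfluramine 3. PDK4 (ENSOCUG00000017120), the kinase that switches off pyruvate dehydrogenase and so spares glucose, was at 109, 104, 107, 173 and 168 CPM with pergolide and at 419, 186, 212, 279 and 216 CPM with dexfenfluramine. The groups did not overlap, but the lowest dexfenfluramine value lay close above the highest pergolide value, and the non-treated valves spanned 115 to 626 CPM. Its log2 difference was 0.99 (standard error 0.23, edgeR adjusted p = 0.35), and 1.05 (edgeR adjusted p = 0.477) without dexfenfluramine 3. TNFAIP3 (ENSOCUG00000002310), an enzyme that edits ubiquitin chains and dampens NF-kB signalling, had 15.7, 14.8, 14.6, 12.8 and 14.6 CPM with pergolide and 22.3, 20.5, 25.1, 22.9 and 23.1 CPM with dexfenfluramine. Its groups were compact and well apart, and the non-treated valves, at 17.2 to 28.9 CPM, reached from between the groups to above both. For TNFAIP3 the log2 difference was 0.65 (standard error 0.10, edgeR adjusted p = 0.0811), and 0.61 (edgeR adjusted p = 0.32) without dexfenfluramine 3. CAMKK2, a kinase that activates AMPK, was at 43.3 ± 10.8 CPM (SD, n = 5) with pergolide and at 59.3 ± 9.98 CPM (SD, n = 5) with dexfenfluramine, with overlap between the groups.

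SCARNA20 (ENSOCUG00000028463), a small RNA of the Cajal body, where spliceosomal RNAs are modified, had the largest log2 difference of the genes that were higher with dexfenfluramine. It was counted at 3.87, 3.46, 3.02, 2.95 and 1.72 CPM with pergolide and at 10.8, 6.01, 9.38, 10.1 and 10.1 CPM with dexfenfluramine, against 0 to 4.49 CPM in the non-treated valves. All dexfenfluramine valves, dexfenfluramine 3 included, lay above all pergolide and all non-treated valves. For SCARNA20 the log2 difference was 1.62 (standard error 0.23, edgeR adjusted p = 0.0811), and 1.61 (edgeR adjusted p = 0.162) without dexfenfluramine 3. Of 23 tested small nucleolar and Cajal body RNAs, 1 had an unadjusted p under 0.05 with dexfenfluramine higher (2 without dexfenfluramine 3). The share was 4.53% over all genes and 5.83% over those with a symbol. The median difference was 0.0925 (0.10 without dexfenfluramine 3), against 0.00145 over all genes tested. With each valve left out in turn this list median ranged from 0.0363 to 0.154. SNORD118, next in the list, overlapped at 4.02 ± 1.68 CPM (SD, n = 5) with pergolide and 6.71 ± 2.37 CPM (SD, n = 5) with dexfenfluramine. Such short transcripts are captured unevenly by library preparation, and the part of this in the difference was not tested.

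RSPO2 (ENSOCUG00000000779), a secreted protein that strengthens the response of cells to WNT ligands, was at 6.14, 9.56, 10.1, 9.26 and 5.17 CPM in the pergolide valves and at 15.4, 19.9, 21.4, 13.5 and 13.5 CPM in the dexfenfluramine valves. The groups were apart, and the non-treated valves, at 8.26 to 22.2 CPM, covered the gap between them. For RSPO2 the log2 difference was 1.06 (standard error 0.21, edgeR adjusted p = 0.266), and 0.95 (edgeR adjusted p = 0.477) without dexfenfluramine 3. LEF1, a transcription factor at the end of the pathway, was at 20.5, 21.3, 31.4, 34.1 and 20.2 CPM with pergolide and at 33.8, 24.9, 50.4, 38 and 42.1 CPM with dexfenfluramine, where dexfenfluramine 3 was the highest and the groups overlapped (log2 difference 0.57, and 0.45 without that valve). Of 20 tested genes of the list, 4 had an unadjusted p under 0.05 with dexfenfluramine higher (RSPO2, LEF1, and TMEM67 and WNT5A, named after their values were seen) and 0 with pergolide higher, against 4.53% and 3.65% of all genes and 5.83% and 5.95% of those with a symbol. Differences were above 0 in 15 of the 20, with a median of 0.17, and the median was 0.111 without dexfenfluramine 3 and 0.0627 with the cardiomyocyte marker level of each valve as a covariate, a fit added after the data were seen.

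Among basement membrane collagens, COL4A5 (ENSOCUG00000010874) was at 95.1, 61.4, 111, 107 and 105 CPM with pergolide and at 129.7, 133, 135, 125 and 143 CPM with dexfenfluramine. The dexfenfluramine valves were within a narrow band above all pergolide valves and above the non-treated range of 68.8 to 112 CPM. For COL4A5 the log2 difference was 0.48 (standard error 0.14, edgeR adjusted p = 0.501), and 0.47 (edgeR adjusted p = 0.622) without dexfenfluramine 3. COL4A6, which lies head to head with COL4A5 and encodes a chain of the same network, overlapped at 37.8, 23.2, 54.3, 51.6 and 52.5 CPM with pergolide and 60, 73.6, 58.7, 70.6 and 46.9 CPM with dexfenfluramine, with a log2 difference of 0.50 (0.52 without dexfenfluramine 3). Fibrillar collagen did not part the groups. COL1A2, a chain of collagen I, was at 1039, 1122, 1343, 1262 and 1682 CPM with pergolide and at 1041, 1628, 1719, 1146 and 1190 CPM with dexfenfluramine, while the non-treated valves held 575 to 948 CPM. For COL1A2 the log2 difference was 0.06 (95% interval -0.31 to 0.43), and -0.04 without dexfenfluramine 3, so that its sign depends on that valve.

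Of the 23 tested collagens and collagen processing genes, 2 had an unadjusted p under 0.05 with dexfenfluramine higher (COL4A5 and COL4A6) and 0 with pergolide higher. The shares were 4.53% and 3.65% of all genes and 5.83% and 5.95% of those with a symbol. Without dexfenfluramine 3 the counts were 2 and 1. The median difference of this list was 0.103, and 0.0133 without dexfenfluramine 3. With the cardiomyocyte covariate the median was -0.0216. Proteoglycans and glycosaminoglycan enzymes had a median of 0.145 over 27 genes (0.0566 without dexfenfluramine 3), and elastic fibre and matrix glycoprotein genes a median of 0.122 over 24 genes (0.0475 without dexfenfluramine 3), of which 6 had an unadjusted p under 0.05 with dexfenfluramine higher and 1 with pergolide higher, against 4.53% and 3.65% of all genes and 5.83% and 5.95% of those with a symbol. Without dexfenfluramine 3 the balance of the elastic fibre list turned to 2 with dexfenfluramine higher and 3 with pergolide higher, and that of the proteoglycan list went from 2 in each direction to 0 and 4. With the covariate the median was 0.00488 for the proteoglycan list and -0.00349 for the elastic fibre list.

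Several matrix genes were nevertheless higher with pergolide in every valve. ADAMTSL1 (ENSOCUG00000004895), a secreted matrix protein related to the ADAMTS proteases but without their catalytic domain, was at 48, 38.8, 28.7, 46.5 and 35.5 CPM with pergolide and at 21.5, 22.8, 17, 24 and 27.8 CPM with dexfenfluramine. The lowest pergolide value lay just above the highest dexfenfluramine value, and the non-treated valves, at 18.5 to 29.8 CPM, were at the dexfenfluramine level. For ADAMTSL1 the log2 difference was -0.80 (standard error 0.16, edgeR adjusted p = 0.266), and -0.71 (edgeR adjusted p = 0.42) without dexfenfluramine 3. LUM (ENSOCUG00000005592), lumican, a small proteoglycan that spaces collagen fibrils, was at 279, 304, 236, 247 and 394 CPM with pergolide and at 192, 231, 203, 190.1 and 166 CPM with dexfenfluramine, against 162 to 242 CPM in the non-treated valves. Its groups touched without overlapping, since pergolide 3 and dexfenfluramine 2 were within a few CPM of each other. For LUM the log2 difference was -0.57 (standard error 0.14, edgeR adjusted p = 0.409), and -0.58 (edgeR adjusted p = 0.595) without dexfenfluramine 3. FBLN7 (ENSOCUG00000002898), a fibulin of the matrix and of cell adhesion, was at 57.1, 57.3, 80.5, 66.9 and 82.9 CPM with pergolide and at 52.8, 53.9, 40.3, 31.9 and 40 CPM with dexfenfluramine. Both groups were above most of the non-treated valves (20.4 to 35 CPM), and pergolide was the higher in all valves. For FBLN7 the log2 difference was -0.65 (standard error 0.16, edgeR adjusted p = 0.411), and -0.63 (edgeR adjusted p = 0.595) without dexfenfluramine 3.

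ITIH5, whose protein binds hyaluronan, overlapped at 145, 131, 88.3, 139 and 129.8 CPM with pergolide and 76.6, 118, 119, 91 and 77.9 CPM with dexfenfluramine, with a log2 difference of -0.39 (-0.48 without dexfenfluramine 3). In the list of matrix proteases and inhibitors, 3 of 19 tested genes had an unadjusted p under 0.05, all with pergolide higher (ADAMTSL1, ADAMTS1 and ADAMTS12, the last named after its value was seen), against 3.65% of all genes and 5.95% of those with a symbol, and 4 without dexfenfluramine 3. ADAMTS1, a protease that cleaves versican and aggrecan, was at 198 ± 29.5 CPM (SD, n = 5) with pergolide and 156 ± 19.9 CPM (SD, n = 5) with dexfenfluramine, against a non-treated mean of 224 CPM. The list's median was 0.046, and -0.0209 without dexfenfluramine 3.

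**Figure D4:**
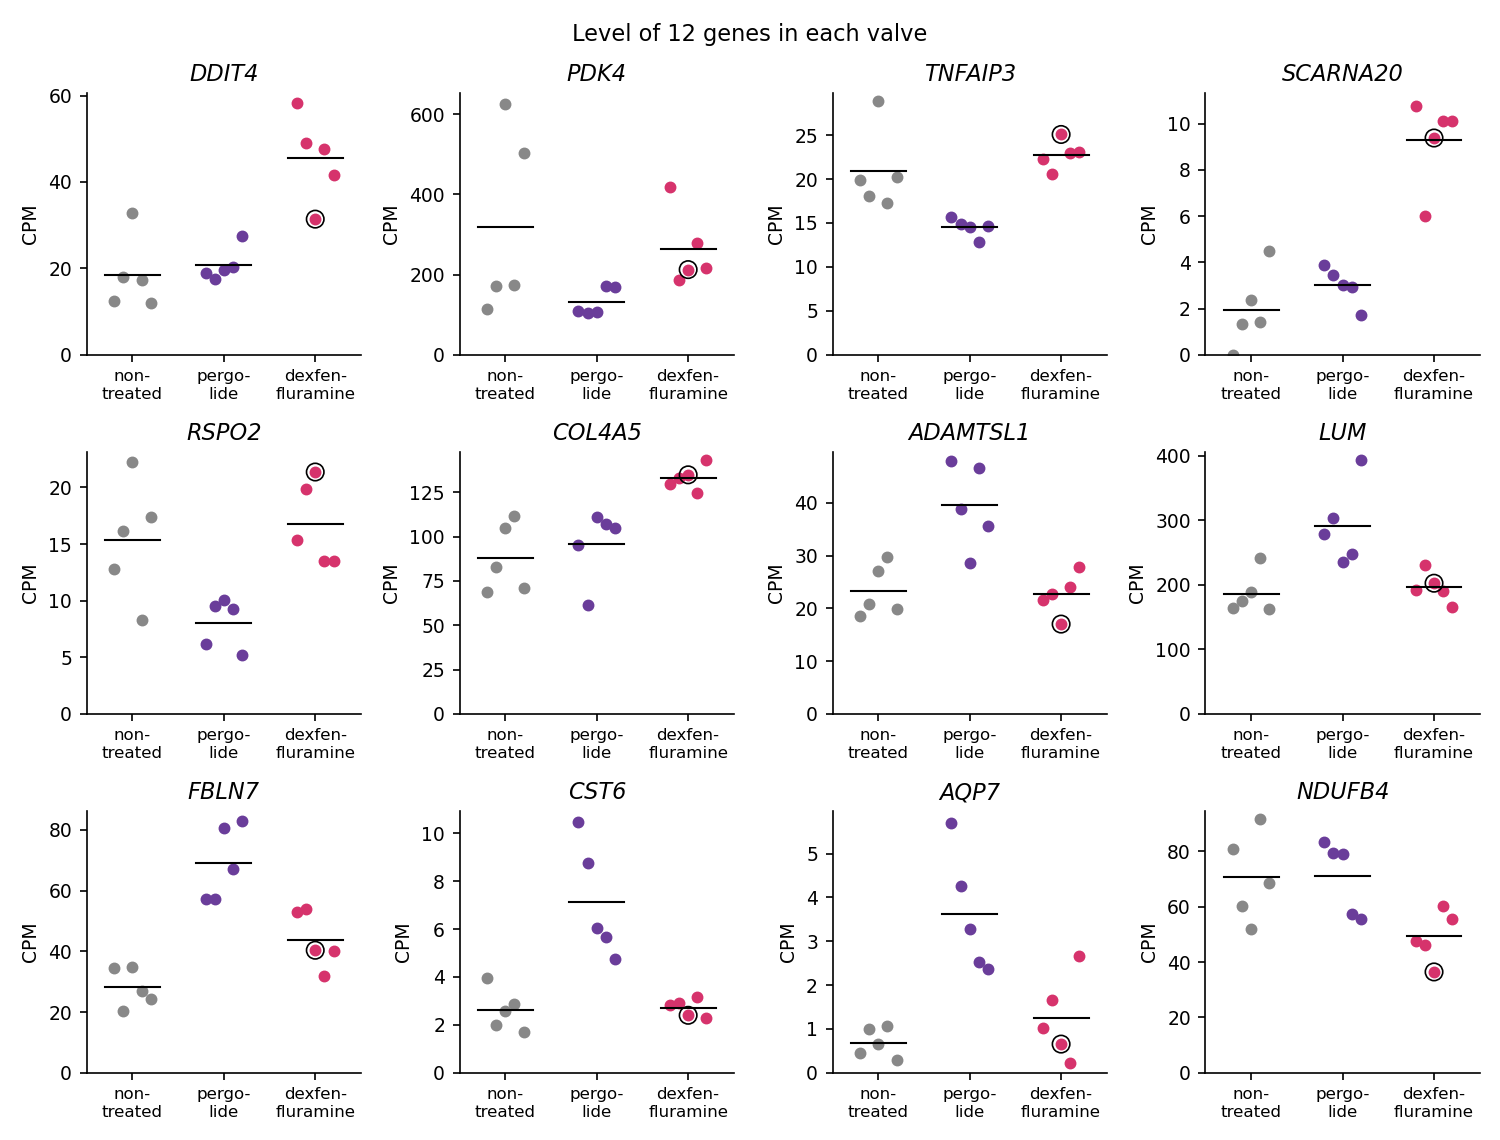
CPM of 12 genes in each non-treated, pergolide and dexfenfluramine valve, with a point per valve and a black line at the group mean. Dexfenfluramine 3 is ringed, and in DDIT4 it is the lowest of its group (31.4 CPM) but above the highest pergolide valve (27.6 CPM).

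CST6 (ENSOCUG00000023396), cystatin M/E, an inhibitor of lysosomal cysteine proteases, was at 10.5, 8.74, 6.04, 5.68 and 4.74 CPM with pergolide and at 2.82, 2.9, 2.4, 3.15 and 2.29 CPM with dexfenfluramine. The dexfenfluramine valves were at the level of the non-treated valves (1.68 to 3.97 CPM) and the pergolide valves above all of them. For CST6 the log2 difference was -1.39 (standard error 0.25, edgeR adjusted p = 0.266), and -1.35 (edgeR adjusted p = 0.42) without dexfenfluramine 3. FGFBP1 (ENSOCUG00000016623), which frees fibroblast growth factors from the matrix, had the largest difference of all named genes, at 8.42, 27, 3.77, 4 and 3.23 CPM with pergolide and 2.05, 2.28, 0.436, 1.12 and 0.953 CPM with dexfenfluramine. Much of its mean came from pergolide 2, and the other pergolide valves lay closer to the dexfenfluramine values and within the non-treated range of 3.09 to 12.9 CPM. For FGFBP1 the log2 difference was -2.77 (standard error 0.70, edgeR adjusted p = 0.417), -2.55 (edgeR adjusted p = 0.611) without dexfenfluramine 3 and -1.82 without pergolide 2. CPS1 (ENSOCUG00000017716), the entry enzyme of the urea cycle, was at 5, 2.85, 4.78, 3.16 and 3.88 CPM with pergolide and 1.28, 1.45, 0.218, 2.02 and 1.14 CPM with dexfenfluramine, with a log2 difference of -1.66 (standard error 0.36, edgeR adjusted p = 0.338) and -1.39 (edgeR adjusted p = 0.42) without dexfenfluramine 3. FGFBP1 and CPS1 were below the level of 3 counts in dexfenfluramine 3 (0.654 CPM), so the sizes of their differences are uncertain. RBP4, the carrier of retinol, was at 22.7, 25.4, 19.6, 22.5 and 29.5 CPM with pergolide and 14.9, 17.4, 10.2, 13.9 and 19.4 CPM with dexfenfluramine, and its groups were separated by a fraction of a CPM.

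GEM, a small GTPase that restrains calcium channels, was at 18.4, 15.7, 18.9, 14.5 and 15.7 CPM with pergolide and 8.71, 10.2, 9.16, 11.5 and 14.5 CPM with dexfenfluramine, and pergolide 4 and dexfenfluramine 5 were almost level. LNP1 had 29.6, 20.1, 28.4, 17.9 and 22.8 CPM with pergolide and 14.9, 16.6, 3.71, 16.9 and 17 CPM with dexfenfluramine, where dexfenfluramine 3 was far below the others of its group. For GEM the log2 difference was -0.61 (standard error 0.16, edgeR adjusted p = 0.417) and for LNP1 -0.78 (standard error 0.30, edgeR adjusted p = 0.601), and without dexfenfluramine 3 they were -0.56 and -0.53. FKBP3, a nuclear immunophilin, and BCAS2, a spliceosome protein, were also higher in all pergolide valves, with log2 differences of -0.59 and -0.23 (-0.62 and -0.22 without dexfenfluramine 3). Among genes without a symbol and without overlap, ENSOCUG00000017424 was at 26.2, 32.5, 51.3, 49.7 and 17.2 CPM with pergolide and 12.8, 12.9, 13.3, 16.4 and 12 CPM with dexfenfluramine, and its pergolide valves were spread widely above a narrow dexfenfluramine band. For ENSOCUG00000017424 the log2 difference was -1.39 (standard error 0.27, edgeR adjusted p = 0.266), and -1.39 (edgeR adjusted p = 0.42) without dexfenfluramine 3. ENSOCUG00000013891 was higher with pergolide (-0.95, and -0.76 without that valve), and ENSOCUG00000014794 and ENSOCUG00000027297 were higher with dexfenfluramine (1.04 and 0.99, and 1.00 and 0.97 without it).

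Glial genes gave a split picture. DRP2 (ENSOCUG00000004487), a dystrophin relative of the Schwann cell membrane, was at 7.05, 5.69, 11.8, 13.5 and 9.26 CPM with pergolide and at 20, 15.1, 30.3, 18.4 and 16.8 CPM with dexfenfluramine. No valves overlapped, the highest being dexfenfluramine 3, and the non-treated valves, at 5.3 to 15.3 CPM, lay mostly at the pergolide level. For DRP2 the log2 difference was 1.09 (standard error 0.25, edgeR adjusted p = 0.349), and 0.89 (edgeR adjusted p = 0.595) without dexfenfluramine 3. S100B, a calcium-binding protein of glial cells, was at 11.4, 8.34, 16.1, 16.8 and 10.3 CPM with pergolide and 22.8, 26.7, 15.9, 18 and 27.4 CPM with dexfenfluramine, and here dexfenfluramine 3 alone lay within the pergolide range. GFAP, a glial filament protein, overlapped slightly at 5, 2.24, 9.05, 8.42 and 7.54 CPM with pergolide and 11, 17.2, 12, 8.54 and 12.8 CPM with dexfenfluramine. Of the 8 tested Schwann and nerve cell markers, 2 (S100B and GFAP) had an unadjusted p under 0.05, against 4.53% of all genes and 5.83% of those with a symbol, and the median over the 8 was 0.00773 (0.036 without dexfenfluramine 3).

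Cytoskeletal genes with dexfenfluramine on top included WASF2 (ENSOCUG00000002394), a WAVE protein that starts branched actin filaments, at 61.9, 69.5, 75.9, 82.1 and 82 CPM with pergolide and 100.5, 101, 114, 91 and 90.9 CPM with dexfenfluramine. The groups lay apart by less than their own ranges, and the non-treated valves spanned 57.8 to 106 CPM. For WASF2 the log2 difference was 0.42 (standard error 0.10, edgeR adjusted p = 0.349), and 0.36 (edgeR adjusted p = 0.595) without dexfenfluramine 3. CAPG, which caps actin filaments, was at 29.3, 27.4, 25.9, 38.7 and 37.5 CPM with pergolide and 50.2, 50.2, 56.5, 39.1 and 39.6 CPM with dexfenfluramine, a separation of under 1 CPM between the nearest valves. MYO1E, an unconventional myosin of the membrane, overlapped at 97.7 ± 9.83 CPM (SD, n = 5) and 135 ± 24.7 CPM (SD, n = 5) in the same order. VIM, vimentin, the main intermediate filament of interstitial cells, was at 2638, 3137, 2457, 3826 and 3770 CPM with pergolide and 4498, 3923, 5796, 3644 and 3796 CPM with dexfenfluramine, with overlap (log2 difference 0.45, and 0.32 without dexfenfluramine 3). Over the 85 tested genes of cytoskeleton organization, 11 had an unadjusted p under 0.05 with dexfenfluramine higher and 4 with pergolide higher, against 4.53% and 3.65% of all genes and 5.83% and 5.95% of those with a symbol (9 and 3 without dexfenfluramine 3), and the median of 0.0283 (0.0161 without dexfenfluramine 3) lay near that of all genes.

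RASSF2 (ENSOCUG00000002090), a Ras-binding adaptor, had a narrow spread, at 19.6, 19.5, 19.6, 18.5 and 21.7 CPM with pergolide and 30, 28.6, 36.6, 26.5 and 25.9 CPM with dexfenfluramine. All dexfenfluramine valves lay above all pergolide valves, and the non-treated valves, at 11.9 to 32.6 CPM, spanned most of the range. For RASSF2 the log2 difference was 0.58 (standard error 0.11, edgeR adjusted p = 0.266), and 0.49 (edgeR adjusted p = 0.42) without dexfenfluramine 3. IRF9, the DNA-binding part of the interferon-activated factor, was at 19.3, 22.2, 18.9, 23.6 and 17.7 CPM with pergolide and at 26.1, 25.5, 27, 24.9 and 26.9 CPM with dexfenfluramine, again without overlap (log2 difference 0.36, and 0.35 without dexfenfluramine 3). SLC15A3, a lysosomal transporter of histidine and small peptides, was at 7.05, 8.34, 6.54, 9.05 and 8.61 CPM and 14.1, 14.7, 12, 10.6 and 12.2 CPM in the same order. SPAG1 and TMEM218, both needed for cilia, also did not overlap, with log2 differences of 0.87 and 0.74 (0.89 and 0.74 without dexfenfluramine 3). In the list of complement, cytokine and interferon genes, 6 of 42 tested genes had an unadjusted p under 0.05 with dexfenfluramine higher and 3 with pergolide higher, against 4.53% and 3.65% of all genes and 5.83% and 5.95% of those with a symbol (7 and 2 without dexfenfluramine 3), and the median was 0.0768 (0.0442 without dexfenfluramine 3). C1QA and C1QB, subunits of complement C1q made by macrophages, had log2 differences of opposite sign, -0.65 and 0.27 (-0.63 and 0.26 without dexfenfluramine 3), with overlap in each. Over the alternative fits the difference ranged from -0.854 to -0.428 for C1QA and from 0.0882 to 0.41 for C1QB.

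Fat-related genes had the most negative median of any list. All 8 tested adipocyte markers were below 0, with a median of -1.25, and 7 of them had an unadjusted p under 0.05 with pergolide higher, against 3.65% of all genes and 5.95% of those with a symbol. Without dexfenfluramine 3 the same count was 7 of 8 and the median -0.957, and with the cardiomyocyte covariate the median was -0.724. AQP7 (ENSOCUG00000017851), the glycerol channel of fat cells, was at 5.69, 4.27, 3.27, 2.53 and 2.37 CPM with pergolide and 1.03, 1.66, 0.654, 0.225 and 2.67 CPM with dexfenfluramine. The ranges overlapped at dexfenfluramine 5, and dexfenfluramine 4 was under the level of 3 counts in that valve (0.674 CPM). GPD1 (ENSOCUG00000015728), which makes the glycerol phosphate for triglycerides, was at 41.6, 65.1, 41.5, 19.4 and 26.9 CPM with pergolide and 20, 27.6, 3.05, 14.2 and 18.3 CPM with dexfenfluramine. In GPD1 too the ranges overlapped, and the non-treated valves held 8.42 to 31.3 CPM. For AQP7 the log2 difference was -1.47 (standard error 0.45, edgeR adjusted p = 0.567) and for GPD1 -1.22 (standard error 0.43, edgeR adjusted p = 0.592), and without dexfenfluramine 3 they were -1.31 and -0.96. No marker of the list separated all valves of a drug from those of the other, and whether the amount of fat tissue taken with the leaflet differed was not tested.

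CYP3E1 (ENSOCUG00000017185), a cytochrome P450 gene, was at 32.8, 61.8, 50.3, 21.9 and 57.3 CPM with pergolide and 7.69, 23.8, 0, 6.52 and 22.7 CPM with dexfenfluramine, against 1.51 to 5.75 CPM in the non-treated valves. Its count of 0 in dexfenfluramine 3 allows a level of up to 0.654 CPM, and pergolide 4 was the only pergolide valve within the dexfenfluramine range. For CYP3E1 the log2 difference was -1.85 (standard error 0.58, edgeR adjusted p = 0.567), and -1.53 (edgeR adjusted p = 0.595) without dexfenfluramine 3, and in the fit with the cardiomyocyte covariate it was -1.48. FMO5, a flavin monooxygenase, differed the other way, at 13.2 ± 1.69 CPM (SD, n = 5) with pergolide and 18.7 ± 4.16 CPM (SD, n = 5) with dexfenfluramine. The list of drug and xenobiotic metabolism, which holds both genes, was split, with 3 of 32 tested at an unadjusted p under 0.05 in each direction, against 4.53% and 3.65% of all genes and 5.83% and 5.95% of those with a symbol, and a median of 0.0544, and without dexfenfluramine 3 with 2 higher with dexfenfluramine, 1 higher with pergolide and a median of 0.00389.

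Most genes of the mitochondria and muscle lists had log2 differences below 0, though edgeR without RUVr factors called 0 of them. The lists as such were not tested. All 42 tested genes of cellular respiration were below 0, with a median of -0.377 against 0.00145 over all genes, and 7 had an unadjusted p under 0.05, all with pergolide higher, against 3.65% of all genes and 5.95% of those with a symbol. Without dexfenfluramine 3 the median was -0.209, 41 genes were below 0 and 4 had an unadjusted p under 0.05. The mean log2 CPM of the list, as a deviation from its mean over the valves, was 0.448, 0.535, 0.481, -0.142 and -0.262 in the pergolide valves and -0.00987, -0.215, -1.11, 0.000473 and 0.273 in the dexfenfluramine valves. Pergolide 1 to 3 were the highest valves and dexfenfluramine 3 by far the lowest, while pergolide 4 and 5 lay near the other dexfenfluramine valves. Cardiomyocyte markers had the same order of extremes (0.602, 0.776, 0.754, -0.0951 and -0.275 and 0.277, -0.143, -2.45, 0.107 and 0.449 by the same measure). With the cardiomyocyte marker level as a covariate the median of the respiration genes was -0.0755, whereas with 1 or 3 RUVr factors edgeR called 20 or 25 of them, all with pergolide higher, against 163 or 248 of all 8436 genes.

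NDUFB4 (ENSOCUG00000029140), an accessory subunit of complex I, had the smallest p of the respiration genes and was at 83.3, 79.3, 79, 57.5 and 55.6 CPM with pergolide and 47.7, 46.2, 36.4, 60.2 and 55.6 CPM with dexfenfluramine. Its ranges overlapped through pergolide 4 and 5, and the non-treated valves spanned 51.8 to 91.6 CPM. For NDUFB4 the log2 difference was -0.52 (standard error 0.15, edgeR adjusted p = 0.551), and -0.43 (edgeR adjusted p = 0.713) without dexfenfluramine 3. The 13 genes of the mitochondrial genome were all below 0, with a median of -0.424 (-0.24 without dexfenfluramine 3 and -0.0543 with the covariate), but 0 had an unadjusted p under 0.05. With 1 RUVr factor 6 of the 13 passed an adjusted p of 0.05 in edgeR, and with 3 factors 10, all with pergolide higher, against 163 and 248 of all 8436 genes in that direction. CYTB, a complex III subunit, was at 9863, 8828, 10125, 4789 and 4790 CPM with pergolide and 6348, 4707, 2072, 5401 and 7328 CPM with dexfenfluramine, so that pergolide 1 to 3 were the highest and dexfenfluramine 3 the lowest.

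MRPS14 (ENSOCUG00000026497), a protein of the mitochondrial ribosome, was among the few genes of this group without overlap, at 26.2, 19.3, 20.6, 14.7 and 17.4 CPM with pergolide and 12.8, 11.4, 10.2, 13.9 and 12.6 CPM with dexfenfluramine. The nearest valves, pergolide 4 and dexfenfluramine 4, were less than 1 CPM apart. For MRPS14 the log2 difference was -0.69 (standard error 0.16, edgeR adjusted p = 0.349), and -0.63 (edgeR adjusted p = 0.595) without dexfenfluramine 3. In its list of mitochondrial ribosome and import genes, 34 of 37 were below 0 and 6 had an unadjusted p under 0.05 (3 without dexfenfluramine 3), all with pergolide higher, against 3.65% of all genes and 5.95% of those with a symbol, with a median of -0.232 (-0.19 without dexfenfluramine 3 and -0.107 with the covariate). With 1 or 3 RUVr factors edgeR called 1 or 3 of the 37, all with pergolide higher, against 163 or 248 of all 8436 genes. LIAS, which makes the lipoic acid cofactor of mitochondrial dehydrogenases, did not overlap either, at 15, 13.6, 12.6, 10.7 and 10.6 CPM with pergolide and 8.46, 7.26, 4.14, 9.66 and 10.3 CPM with dexfenfluramine.

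Among 54 tested muscle structure genes, 49 were below 0 and 3 had an unadjusted p under 0.05, all with pergolide higher (SMPX, TRIM55 and CSRP3), against 3.65% of all genes and 5.95% of those with a symbol. The median was -0.394, and -0.177 without dexfenfluramine 3, where 41 were below 0 and 5 had an unadjusted p under 0.05. With 1 or 3 RUVr factors 18 or 25 of them were called by edgeR, all with pergolide higher, against 163 or 248 of all 8436 genes in that direction. SMPX, a small protein of striated muscle, was at 50, 63.4, 64.9, 32.6 and 30.1 CPM with pergolide and 38.7, 27.8, 7.2, 28.5 and 19.1 CPM with dexfenfluramine. CSRP3, a sarcomere protein, was at 418, 371, 334, 304 and 254 CPM with pergolide and 245, 174, 70, 294 and 273 CPM with dexfenfluramine. In each, dexfenfluramine 3 was the lowest of the 10 valves and the groups overlapped. Glucose metabolism genes had a median of -0.332 over 20 genes and fatty acid metabolism genes -0.218 over 33 genes, and without dexfenfluramine 3 these were -0.146 and -0.127. PDK4 was the exception of the glucose list, its single gene with dexfenfluramine higher at an unadjusted p under 0.05, while the glycolytic enzymes TPI1 and PGAM2, the latter named after its value was seen, were higher with pergolide. ACSL1, which activates long-chain fatty acids, was at 45.5, 53.5, 51.8, 22.9 and 37.5 CPM with pergolide and 24.6, 27.2, 10.5, 22 and 37.2 CPM with dexfenfluramine. In the fatty acid list 6 of 33 genes had an unadjusted p under 0.05 with pergolide higher (3 without dexfenfluramine 3) and 1 with dexfenfluramine higher (0 without it). The shares in these directions were 3.65% and 4.53% of all genes and 5.95% and 5.83% of those with a symbol. The 1 gene was CROT, which moves fatty acids out of peroxisomes (log2 difference 0.38, and 0.26 without dexfenfluramine 3). With 1 or 3 RUVr factors 8 and 8 of the 33 fatty acid genes and 7 and 10 of the 20 glucose genes were called with pergolide higher. Of all 8436 genes 163 and 248 were called in that direction. With dexfenfluramine higher these fits called 0 fatty acid genes and 1 glucose gene each, against 45 and 81 of all genes. With the covariate the medians were -0.0158 for muscle structure, -0.0383 for glucose metabolism and -0.0279 for fatty acid metabolism. The covariate is summed from the cardiomyocyte markers, and genes such as CSRP3 and ACTC1 are in both that list and the muscle structure list. The muscle structure median with the covariate is therefore drawn towards 0 in part by construction.

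**Figure D5:**
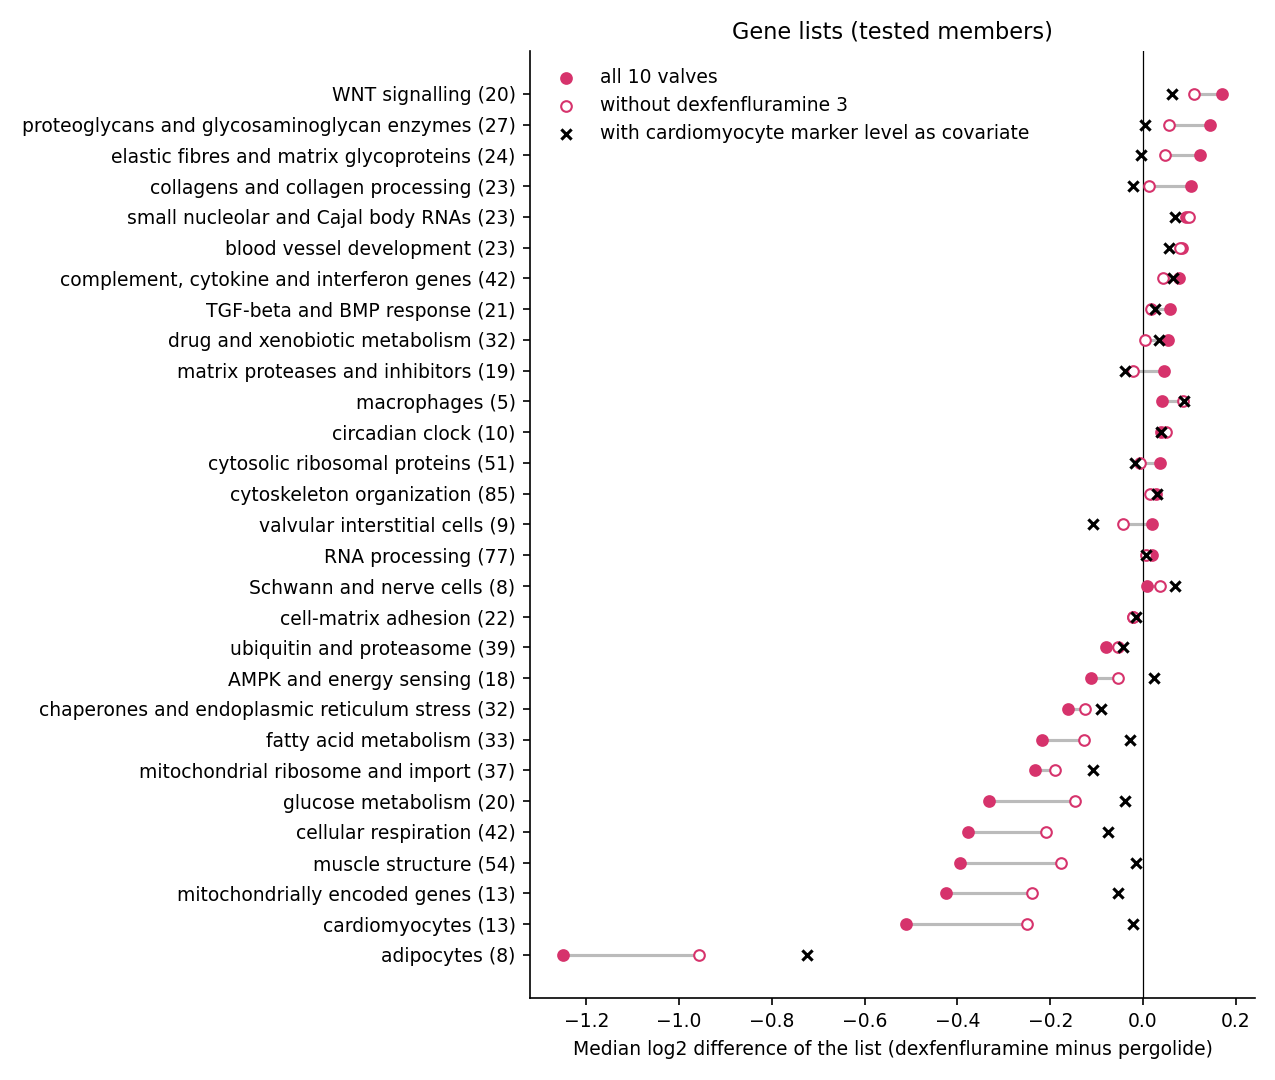
Median log2 difference of each gene list with at least 5 tested members, whose number is in brackets. Filled circles show all 10 valves, open circles the fit without dexfenfluramine 3 and crosses the fit with the cardiomyocyte marker level as a covariate. With the covariate the muscle structure median goes from -0.394 to -0.0158 and the adipocyte median from -1.25 to -0.724. The covariate is summed from the cardiomyocyte list, which shares genes with muscle structure, so for these 2 lists the move towards 0 is partly built in.

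Chaperones and genes of endoplasmic reticulum stress were below 0 in 27 of 32 tested, with a median of -0.161 (-0.125 without dexfenfluramine 3 and -0.0905 with the covariate) and 6 genes at an unadjusted p under 0.05, all with pergolide higher, against 3.65% of all genes and 5.95% of those with a symbol, and 3 without dexfenfluramine 3. DNAJB4, a cochaperone of the HSP70 system, was at 114, 131, 127, 115 and 97.1 CPM with pergolide and 91, 84.4, 69.8, 98 and 99.3 CPM with dexfenfluramine, overlapping only through pergolide 5. Among 39 genes of ubiquitin and the proteasome the median was -0.0804 (-0.0539 without dexfenfluramine 3). Of these, 5 had an unadjusted p under 0.05, all with pergolide higher (3 without dexfenfluramine 3), against 3.65% of all genes and 5.95% of those with a symbol. The ubiquitin ligases ITCH and WWP1 did not overlap despite small differences, against 0.581% of all genes without overlap and with pergolide higher. ITCH was at 132, 131, 149, 136 and 148 CPM with pergolide and 126, 123, 118, 123 and 124 CPM with dexfenfluramine (log2 difference -0.18, and -0.17 without dexfenfluramine 3), and WWP1 differed by -0.20 (-0.20 without that valve).

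The 21 genes of TGF-beta and BMP response had a median of 0.0592 (0.017 without dexfenfluramine 3), with ACVR1, a BMP receptor, at 78 ± 9.93 CPM (SD, n = 5) with pergolide and 94.9 ± 11.3 CPM (SD, n = 5) with dexfenfluramine, and ZEB1, a repressor of epithelial genes, at 80.7 ± 11.8 CPM and 65.1 ± 4.19 CPM (SD, n = 5). Blood vessel development had a median of 0.0846 over 23 genes (0.0801 without dexfenfluramine 3), with 5 of them at an unadjusted p under 0.05 with dexfenfluramine higher (WWTR1 and ADGRF5 with the smallest p) and 1 with pergolide higher, against 4.53% and 3.65% of all genes and 5.83% and 5.95% of those with a symbol, and 3 and 1 without that valve. The 3 endothelial markers had a median of 0.254 (0.185 without it), and 1 of them, PECAM1, singled out after its value was seen, had an unadjusted p under 0.05 with dexfenfluramine higher (0 without it). The medians of RNA processing (77 genes), cell-matrix adhesion (22), AMPK and energy sensing (18) and the circadian clock (10) were 0.0191, -0.0223, -0.112 and 0.0399. Without dexfenfluramine 3 they were 0.00557, -0.0216, -0.0539 and 0.0488. At an unadjusted p under 0.05 these lists had 1, 2, 2 and 0 genes with dexfenfluramine higher, and 1 each with pergolide higher. The shares were 4.53% and 3.65% of all genes and 5.83% and 5.95% of those with a symbol. The 51 cytosolic ribosomal proteins had a median of 0.0365, and -0.00648 without dexfenfluramine 3. RPL38 and RPL15 had unadjusted p under 0.05 (log2 differences 0.54 and 0.28, and 0.41 and 0.23 without that valve). Without it RPL15 no longer did (edgeR unadjusted p = 0.0655). Ribosomal protein genes have many near-identical copies in the genome and their counts are uncertain. The same holds for Hist1h3b, a histone H3 gene, at 3.87, 3.66, 5.28, 3.79 and 4.31 CPM with pergolide and 1.54, 2.07, 0.654, 0 and 3.43 CPM with dexfenfluramine.

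Clock genes varied within the groups. ARNTL, the core activator of the clock, was at 1.14, 5.29, 1.51, 5.89 and 2.37 CPM with pergolide and 3.84, 6.84, 4.14, 2.92 and 25.3 CPM with dexfenfluramine. Dexfenfluramine 5 alone set the mean of its group, and the non-treated valves held 6.58 to 27.9 CPM. CIART, a repressor of the clock, was at 7.51, 5.9, 4.53, 3.16 and 5.38 CPM and 3.33, 1.87, 5.45, 3.15 and 3.05 CPM in the same order. Both overlapped, and the hour at which each valve was taken is not given in the sources used here.

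COL1A2, described above, HAPLN1, MGP, RPL11 and the miR-107 gene were examined because the study also measured them by RT-qPCR. HAPLN1 (ENSOCUG00000002630), which links hyaluronan to proteoglycans, was at 48.5, 53.5, 64.1, 69.1 and 82 CPM with pergolide and 90.7, 72.4, 157, 101 and 52.6 CPM with dexfenfluramine. Its highest value was that of dexfenfluramine 3 and its groups overlapped, with a log2 difference of 0.58 (standard error 0.25, edgeR adjusted p = 0.603) and 0.31 (edgeR adjusted p = 0.814) without that valve. Over the alternative fits the HAPLN1 difference ranged from 0.0856 to 0.726. MGP, an inhibitor of matrix calcification, was within a narrow band at 1078, 1028, 1088, 1085 and 1073 CPM with pergolide and widely spread at 902, 1152, 1533, 744 and 899 CPM with dexfenfluramine. For MGP the log2 difference was -0.03 (95% interval -0.39 to 0.33), and -0.21 without dexfenfluramine 3. RPL11, a ribosomal protein, was at 216 ± 23.2 CPM (SD, n = 5) with pergolide and 211 ± 39.8 CPM (SD, n = 5) with dexfenfluramine, with a log2 difference of -0.04 (95% interval -0.31 to 0.24), and -0.06 without dexfenfluramine 3. The miR-107 gene had 9 reads in all over the pergolide valves and 1 read over the dexfenfluramine valves (20 over the non-treated valves), too few for a test, and precursor reads in such libraries do not measure the mature microRNA.

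Of the genes for serotonin receptors, transport and breakdown, 5 of 31 listed could be counted and 4 tested, and none had an unadjusted p under 0.05, though PLCB4 was among the RUVr calls. HTR4, a serotonin receptor, was at 7.73, 5.9, 3.77, 14.3 and 6.46 CPM with pergolide and 12.6, 10.2, 19.8, 7.87 and 9.72 CPM with dexfenfluramine, against 4.21 to 6.58 CPM in the non-treated valves. MAOA, which breaks serotonin down, was at 55.5, 51.4, 33.2, 52.4 and 54.9 CPM with pergolide and 54.8, 58.3, 92.2, 53 and 53 CPM with dexfenfluramine, where pergolide 3 was the lowest and dexfenfluramine 3 the highest. The log2 differences were 0.64 for HTR4 and 0.33 for MAOA, and 0.38 and 0.14 without dexfenfluramine 3. PLCB4, a phospholipase downstream of such receptors, and TGM2, a transglutaminase that can attach serotonin to proteins, had log2 differences of -0.37 and 0.09 (-0.17 and 0.13 without dexfenfluramine 3). SLC22A3, a transporter that takes up serotonin, had 68 reads over the pergolide valves and 35 over the dexfenfluramine valves and was not tested. Other receptors of the list have no symbol here and were not examined.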

How the data were processed

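Per the methods of the study, the authors depleted ribosomal RNA, made stranded SMARTer libraries, aligned reads with TopHat2 2.1.1 to oryCun2 and counted reads on genes with HTSeq in union mode. The strand setting and annotation release are not given in the sources used here, so antisense and overlapping genes cannot be told apart. The deposited gene counts of the 10 valves were the values used. The 8436 genes kept by filterByExpr were compared by a two-sided quasi-likelihood test (edgeR 4.0.16, TMM, Benjamini-Hochberg adjusted p under 0.05), with log2 CPM (prior count 2) for principal components of 500 genes, R 4.3.3, Python 3.11.15, matplotlib 3.10.9, numpy 2.4.6 and pandas 2.3.3. DESeq2 1.42.0, limma 3.58.1, sva 3.50.0, RUVr factors, other scalings and filters, each valve left out, replicate number as a block and all 20 valves in a single fit were tried. HTSFilter was not used. The code was tested on simulated counts. Symbols reached 3521 identifiers in the table after 564 were repaired by removing 1 surplus zero, and 276 shortened or lengthened identifiers were not used. The genes named were, of those with no overlap, an unadjusted p under 0.05 and a mean log2 CPM of at least 1, the 12 with the largest difference in each direction and 2 without a symbol, the 2 of smallest p of each list with 5 or more tested members, the most counted gene, those the study measured by RT-qPCR and the counted genes of the serotonin list. The members and the 35 gene lists were chosen with earlier results of these data known. The cardiomyocyte covariate was added after the data were seen. A gene that the naming rule selects is not reported here.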

Additional observations from a re-analysis of the deposited data

Results flagged for a closer look

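In 13 of 200 groups of 5 values looked at, a valve lay far from the other 4 of its group, where chance gives about 1 in 20. Of these, 6 were dexfenfluramine and 7 pergolide groups, and 4 were dexfenfluramine 3. Dexfenfluramine 3 scored 37.1 on the first principal component (others -4.86 to 3.35) and was low in TPI1 at 72.0 CPM (others 122 to 136) and LNP1 at 3.71 CPM (others 14.9 to 17.0), but high in MAOA at 92.2 CPM (others 53.0 to 58.3). Among the other dexfenfluramine valves, ARNTL was at 25.3 CPM in valve 5 (others 2.92 to 6.84) and TNS2 at 52.5 CPM in valve 1 (others 36.4 to 40.8). Pergolide 2 had the largest total count, 5921025 (others 4484239 to 4848510), FGFBP1 at 27.0 CPM (others 3.23 to 8.42) and MGP at 1028 CPM (others 1073 to 1088). Pergolide 3 had MAOA at 33.2 CPM (others 51.4 to 55.5), ITIH5 at 88.3 CPM (others 129.9 to 145) and TIMM17A at 20.4 CPM (others 12.4 to 14.4). In pergolide 5 DDIT4 was at 27.6 CPM (others 17.5 to 20.2).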

How the results depend on the processing

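The count of 0 genes called by edgeR stayed 0 under other scalings, other filters, limma-voom and the fit of all 20 valves. It was 18 with DESeq2, 1 with svaseq surrogate variables (DDIT4), 208 with 1 and 329 with 3 RUVr factors, 3 at an adjusted p under 0.1, and 1 with the cardiomyocyte covariate chosen after seeing the data (DDIT4, adjusted p = 0.0433). The cause was not tested. With a valve left out the count ranged from 0 to 2, with DDIT4 and ENSOCUG00000017424 without pergolide 5, SCARNA20 without dexfenfluramine 2 and DDIT4 without dexfenfluramine 3. Genes without overlap then ranged from 90 to 165 with dexfenfluramine higher and from 71 to 122 with pergolide higher, since fewer valves overlap less often. With replicate number as a block (replicate block) 0 genes were called and 445 had an unadjusted p under 0.05. After the group mean of each gene was taken off, the deviations of valves of like number correlated at 0.0394, 0.0464, -0.278, -0.134 and -0.307. Each pergolide valve correlated higher with a dexfenfluramine valve of another number. Such deviations sum to 0 within a group, so these values cannot tell whether the numbers pair the rabbits. The cell-matrix adhesion median ranged from -0.0489 to 0.0318 with a valve left out, and 20 of 29 lists kept the sign of the median under all settings. Of 86 named genes 82 kept their sign, and COL1A2, MGP, RPL11 and CYTB did not. The median 95% interval of a log2 difference reached 0.339 to either side at 3247091 to 5921025 counts per valve, so smaller differences are not resolved in many genes, and a gene that misses the threshold may still differ.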

Other observations

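PLEKHB2, singled out after its values were seen, was present or absent by valve. It was at 108, 112, 105, 0 and 0 CPM in pergolide valves 1 to 5, at 0, 32.6, 0, 0.225 and 106 CPM in dexfenfluramine valves 1 to 5, and at 52.5 to 129 CPM in the non-treated valves. Its log2 difference was -1.19 with a standard error of 1.32, and -0.86 without dexfenfluramine 3.

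TSC22D1, a transcriptional regulator that DESeq2 called and that was singled out after its values were seen, was at 123, 128, 131, 139 and 148 CPM with pergolide and 191, 177, 176, 171 and 157 CPM with dexfenfluramine, without overlap. The log2 difference was 0.38 (edgeR adjusted p = 0.266), and also 0.38 without dexfenfluramine 3. A list of 31 genes that respond to glucocorticoids or FOXO factors was written after DDIT4, PDK4, TNFAIP3 and TSC22D1 were seen. Over its 7 tested members other than these genes, 0 had an unadjusted p under 0.05 and the median was 0.115 (0.0684 without dexfenfluramine 3).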
